A study of Mus musculus with 18 samples.

Results

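The cytosolic ribosomal protein genes encode the protein subunits of the ribosomes that translate nuclear mRNA. They were taken from the count table as protein coding genes whose mouse symbol is Rpl or Rps followed by a number and optional letters, together with Rpsa, Rplp0, Rplp1 and Rplp2. S6 kinase genes and pseudogenes were left out. The rule gave 82 of 54532 genes, 50 of the large subunit and 32 of the small subunit, spread over 19 chromosomes, with 4 on the X chromosome. Each of the 82 had a count in at least 1 library. A separate list holds 5 genes that also encode ribosome proteins but do not match the rule, among them Rpl22l1, Rpl7l1, Fau and Rack1. Rps3a1, whose symbol ends in a digit, was noticed later and is named apart.

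RNA came from retinas of rd1 (FVB) mice at postnatal day 30, a strain that carries a Pde6b mutation and loses its rods early. All mice received AAV8-GFP into the subretinal space, and the TGFB1 groups received AAV8-TGFB1 with it. Sorted microglia gave 7 GFP and 7 TGFB1 libraries. The other retinal cells, sorted as non-microglia, gave 2 GFP and 2 TGFB1 libraries, and these are a mixture of cell types rather than 1 type. The 10 microglia markers summed to between 41439 and 51359 CPM in microglia libraries and to between 54.6 and 68.0 CPM in non-microglia libraries; CPM are counts per 1000000 of the TMM-scaled library size. Neither the promoter driving TGFB1 nor the number of animals behind each library is stated in the labels.

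Ribosomal protein mRNAs are among the most abundant of a growing cell, and most proteins they encode are used in a fixed ratio, 1 copy of each per ribosome. Many of these mRNAs begin with a terminal oligopyrimidine (TOP) tract, a C followed by pyrimidines, through which mTORC1 and the binding protein Larp1 regulate their translation. Levels of mRNA as measured here do not show that regulation. A few genes have paralogs that are known from restricted tissues, such as Rpl3l in muscle and Rpl10l and Rpl39l in testis.

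The sequences at the annotated starts are shown because the TOP tract is the feature that this gene family is known to share. Each window holds 10 bases before and 20 bases from a RefSeq start (GRCm38.p6), and capitals mark the pyrimidine run from the start where it begins with C and goes on for at least 4 pyrimidines. Rps6 encodes the S6 kinase substrate, Rplp2 a protein of the stalk that recruits elongation factors and Rps10 a small subunit protein. Rps27 and Rps27l are paralogs. Rpl22 and Rps27l are the members that differed least between the sorted fractions in GFP retinas, and no capitals appear in their windows. In Rps27l a C with pyrimidines begins just after the start. The windows are examples and not a sample of the family, in which 14 of 74 starts had the tract exactly at the start. Members with and without it had median log2 fold changes of 1.75 and 1.87 between the fractions in GFP retinas.
Rps6: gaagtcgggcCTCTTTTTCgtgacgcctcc
Rplp2: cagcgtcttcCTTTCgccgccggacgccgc
Rps10: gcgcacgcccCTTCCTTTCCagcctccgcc
Rps27: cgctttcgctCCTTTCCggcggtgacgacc
Rps27l: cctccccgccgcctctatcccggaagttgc
Rpl22: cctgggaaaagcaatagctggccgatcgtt
Rack1: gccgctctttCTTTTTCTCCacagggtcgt
Fau: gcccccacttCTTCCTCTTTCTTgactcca
The windows lie at chr4:86857348-86857377 (minus strand) for Rps6, chr7:141447641-141447670 (plus) for Rplp2, chr17:27635225-27635254 (minus) for Rps10 and chr3:90213629-90213658 (minus) for Rps27. Those of Rps27l, Rpl22, Rack1 and Fau lie on the plus strand at chr9:66946076-66946105, chr4:152325716-152325745, chr11:48800350-48800379 and chr19:6057937-6057966.

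In the RefSeq table, 62 of the 82 members had 74 starts, and 14 of these starts (18.9%) had the tract exactly at the start. Among all 32851 starts of the table the share was 2.51%. None of the 75 starts of 69 mitochondrial ribosomal protein genes had it, where a different set of proteins serves the ribosome inside mitochondria. With the tract allowed to begin within 5 bases of the annotated start, the shares were 41.9% of members' starts, 22.7% of mitochondrial ribosomal protein starts and 18.3% of all starts. Only the transcribed strand was searched, and a start without a match says only that these letters are not in that window.

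The members took a larger share of the counts in microglia than in the other retinal cells. In the 7 microglia GFP libraries the 82 genes together held 1.41% ± 0.118 (SD) of all counts, with a lowest value of 1.22%, a median of 1.41% and a highest of 1.62%. The 7 microglia TGFB1 libraries held 1.31% ± 0.0768, from 1.22% to 1.40% with a median of 1.29%. The non-microglia GFP libraries held 0.554% and 0.531%, and the non-microglia TGFB1 libraries 0.556% and 0.589%. Every microglia library lay above every non-microglia library, while the ranges of the GFP and TGFB1 microglia libraries overlapped. The raw shares of the 78 mitochondrial ribosomal protein genes were ordered the other way. They were 0.190% ± 0.00722 and 0.194% ± 0.00978 in microglia GFP and TGFB1 libraries (n = 7 each) against 0.274% ± 0.0110 and 0.278% ± 0.0115 in non-microglia (n = 2 each). All these shares are of raw counts. With TMM scaling, the mitochondrial genes had a median log2 fold change of 0.05 between the fractions in GFP retinas, with 7 called higher and 10 lower (edgeR). The order of the mitochondrial shares was therefore not seen in the scaled values. For the members the scaled counts summed to 15461 ± 1655 CPM in microglia GFP libraries and 4195 ± 66.9 CPM in non-microglia GFP libraries. The fractions lay further apart in these scaled sums than in the raw shares. In sorted bulk samples, a different mixture of cells and a different amount of RNA per cell cannot be told apart.

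**Figure D1:**
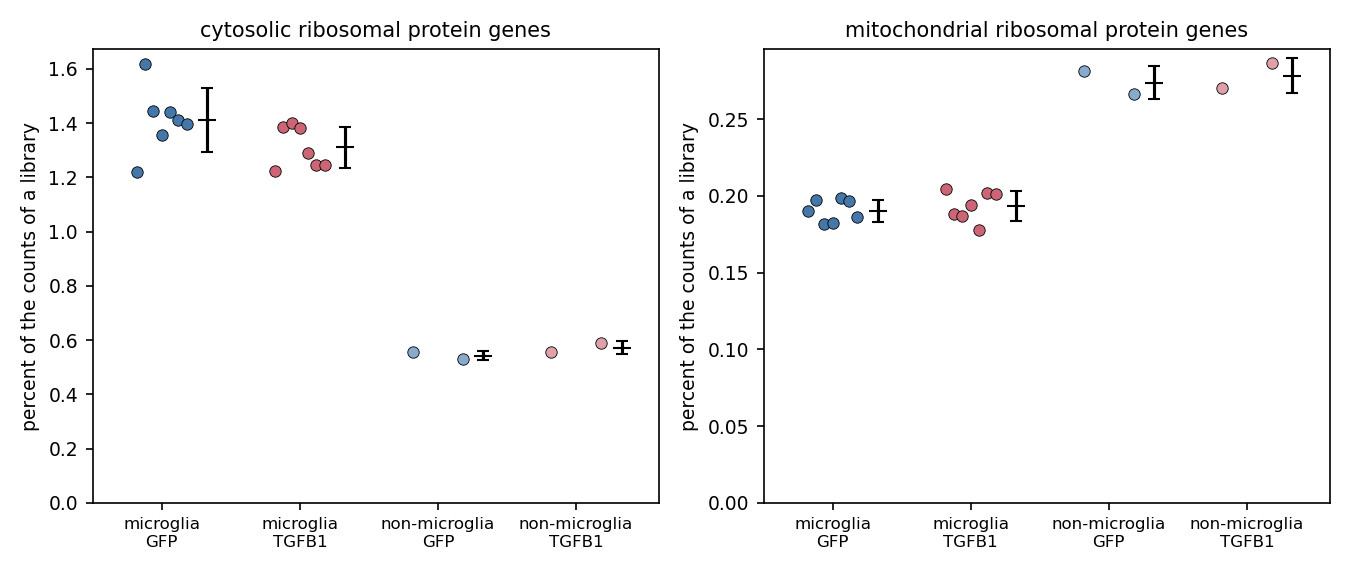
Percent of each library's counts in the 82 cytosolic (left) and the 78 mitochondrial (right) ribosomal protein genes, by sorted fraction and treatment. Points are libraries and the bar beside each group is the mean with its SD. Microglia lie at 1.22% to 1.62% on the left and non-microglia at 0.531% to 0.589%. On the right the order of the fractions is turned round in these raw shares, which are not TMM-scaled.

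The comparison of microglia with non-microglia asks which transcripts the sorted cells carry at higher relative levels. It was made in one edgeR quasi-likelihood fit of all 18 libraries, in which 79 members passed the filter on low counts; Rpl10l, Rpl3l and Rpl39l did not. In GFP retinas 78 of the 79 were higher in microglia at an adjusted p under 0.05 and 0 were lower, where 29.9% of all 15321 genes tested were higher and 34.2% lower. The median log2 fold change of the members was 1.85 (3.61-fold) and the range was 0.24 to 2.90. At least 2-fold higher values in microglia were found for 76 members, against 3512 of all 15321 genes tested. For all genes tested the median was -0.06. Every microglia GFP library lay above both non-microglia GFP libraries for 77 members, against 29% of all genes.

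The same comparison in TGFB1 retinas, which shares no library with the first, found 78 of 79 higher and 0 lower (edgeR), where 30.8% of all genes were higher and 34.4% lower. The median was 1.63 (3.10-fold) and the range -0.05 to 2.62. The libraries of the fractions did not overlap for 75 members, against 30% of all genes. Across the 79 genes the log2 fold changes of both contrasts had a Pearson r of 0.886, and across all genes tested r was 0.965; genes are not independent replicates, so these values are a description. The subunits had near medians in GFP retinas, 1.82 for 47 large subunit genes and 1.87 for 32 small subunit genes. The 14 tested members with a tract at a RefSeq start had a median of 1.75 and the 45 with a start but no tract 1.87.

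**Figure D2:**
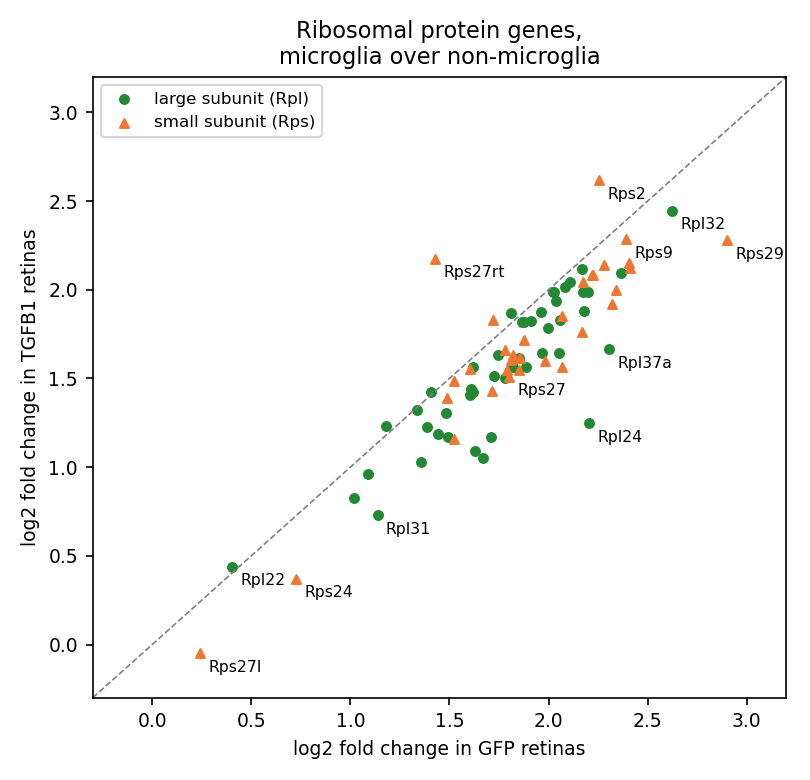
Log2 fold change of microglia over non-microglia for each of the 79 tested members in GFP retinas (x axis) and TGFB1 retinas (y axis); the dashed line marks equal values. Most genes lie between 1 and 2.5 on both axes and below the line, and Rps27l, Rpl22 and Rps24 lie nearest to 0.

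Rps29, which encodes a small zinc-binding protein of the small subunit (ENSMUSG00000034892, GRCm38 chromosome 12, 69157722 to 69159186), differed most in GFP retinas. Its lowest, median and highest values were 57.7, 80.4 and 81.6 CPM in the 7 microglia GFP libraries, and the non-microglia GFP libraries had 9.69 and 10.8 CPM. All microglia libraries were far above both others (log2 fold change 2.90, SE 0.21, edgeR adjusted p = 7.74e-12). With TGFB1 the microglia libraries ran from 57.2 to 83.2 CPM around a median of 67.8, and the non-microglia had 11.7 and 16.6 CPM (2.28, SE 0.20, edgeR adjusted p = 2.64e-10).

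Rpl32, a large subunit gene (chromosome 6, 115805505 to 115808747), had 216 to 312 CPM with a median of 256 in microglia GFP libraries and 46.1 and 39.7 CPM in non-microglia (log2 fold change 2.62, SE 0.15, edgeR adjusted p = 9.86e-14). Rps9, whose protein lies near the mRNA entry channel of the small subunit (chromosome 7, 3703993 to 3706897), had 413 to 545 CPM with a median of 479 against 85.8 and 96.6 CPM (2.39, SE 0.11, edgeR adjusted p = 3.16e-15). Both genes were as clearly apart in TGFB1 retinas, at 2.45 (SE 0.15) and 2.28 (SE 0.11). Rps4x, Rpl12, Rpsa, Rps23, Rpl37a and Rps26 were also among the 10 largest differences in GFP retinas, with log2 fold changes of 2.28 to 2.40. Rps4x is the X-linked gene of small subunit protein S4, Rpsa encodes the protein also known as the laminin receptor precursor, and Rps26 lies at the mRNA exit of the small subunit.

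The paralogs are given pair by pair, and no difference within a pair was tested. Rps27 had 112 to 147 CPM with a median of 131 in microglia GFP libraries and 35.8 and 39.1 CPM in non-microglia (log2 fold change 1.80, SE 0.15, edgeR adjusted p = 2.5e-10). Rps27l, whose human counterpart is induced by p53, had 24.7 to 38.2 CPM with a median of 29.9 against 22.9 and 31.0 CPM, so that the groups overlapped (0.24, SE 0.19, edgeR adjusted p = 0.268). It was also not called in TGFB1 retinas (-0.05, SE 0.19, edgeR adjusted p = 0.828), the 1 member of 79 without a call in either contrast. The coding sequences of Rps27 and Rps27l were 76.1% identical. Rps27rt, whose coding sequence is 100% identical to that of Rps27, had a log2 fold change of 1.43 (SE 0.36, edgeR adjusted p = 0.00117), below that of Rps27. In TGFB1 retinas the order was turned round, at 2.18 (SE 0.40) for Rps27rt and 1.51 (SE 0.15) for Rps27. Reads from both genes cannot be told apart within the coding sequence.

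Rpl22 and Rpl22l1 have coding sequences that are 67.5% identical. Rpl22 had 91.3 to 131.5 CPM with a median of 107 in microglia GFP libraries and 81.7 and 81.2 CPM in non-microglia (log2 fold change 0.40, SE 0.16, edgeR adjusted p = 0.0291). Rpl22l1, which is outside the rule, had 37.1 to 45.8 CPM with a median of 40.2 against 10.3 and 11.1 CPM (1.94, SE 0.21, edgeR adjusted p = 1.41e-08). The groups of both genes did not overlap, but the call of Rpl22 was lost with RLE size factors (0.29, edgeR adjusted p = 0.107), in DESeq2, without a filter on low counts, without microglia GFP replicate 3 and without either non-microglia GFP library (edgeR adjusted p = 0.0529 to 0.110 in the last 4 of these). Rpl7 had a log2 fold change of 1.09 (SE 0.17) and Rpl7l1, a paralog outside the rule linked to ribosome assembly, 0.41 (SE 0.12, edgeR adjusted p = 0.00435), a call that was lost without non-microglia GFP replicate 2 (0.35, edgeR adjusted p = 0.0714) and without a filter on low counts (0.38, edgeR adjusted p = 0.0554).

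Rpl3, which lies near the peptidyl transferase centre, had a log2 fold change of 1.99 (SE 0.12, edgeR adjusted p = 2.43e-13). Rpl10, which acts in the last steps of large subunit maturation, had 2.06 (SE 0.16), and Rpl39, of the exit tunnel, 2.11 (SE 0.31). Their tissue-restricted paralogs were at or near the floor: Rpl10l had 1 count in all 18 libraries, Rpl3l had 7 and Rpl39l had 41. All 4 non-microglia libraries had 0 counts of Rpl39l, and 16 of its 41 counts came from microglia GFP replicate 7. Rpl36a and Rpl36al, with coding sequences 87.9% identical, had log2 fold changes of 1.81 (SE 0.19) and 1.39 (SE 0.22). Of the 13 paralog genes tested, 11 were higher in microglia and 0 lower (edgeR); besides Rps27l, Rps4l, which the annotation lists as a pseudogene, was not called (0.73, SE 0.51, edgeR adjusted p = 0.217).

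Rps24, a gene whose human counterpart is mutated in Diamond-Blackfan anaemia, was noticed in the plot of both contrasts after its values were seen. It had 158 to 208 CPM with a median of 178 in microglia GFP libraries and 115 and 104 CPM in non-microglia (log2 fold change 0.73, SE 0.15, edgeR adjusted p = 0.000147). With Rps27l and Rpl22 it made up the 3 tested members that differed by less than 2-fold in GFP retinas. In TGFB1 retinas 73 of 79 were at least 2-fold higher in microglia, against 3612 of all 15321 genes tested. There Rps24, at 0.37, lay below Rpl22, at 0.44.

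Genes that work with the ribosomal proteins were higher in microglia to different degrees. In GFP retinas all 5 of the ribosome genes outside the rule were higher, with a median log2 fold change of 1.94. Among them Fau, which encodes a ubiquitin-like protein fused to Rps30, had 2.45 (SE 0.15, edgeR adjusted p = 5.41e-13) and Rack1, a scaffold on the small subunit, 1.83 (SE 0.30). Rps3a1 had 2.13 (SE 0.16). Of the 15 elongation factor and other TOP genes all 15 were higher, with a median of 1.07; the tRNA carrier gene Eef1a1 had 2.05 (SE 0.12), its exchange factor Eef1b2 1.78 (SE 0.17) and the translocase gene Eef2 1.11 (SE 0.11).

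Of the 40 genes for ribosome biogenesis and RNA polymerase I, 22 were higher, 3 lower and 15 not called, with a median of 0.62. Pes1, an assembly factor of the large subunit, had 1.82 (SE 0.15, edgeR adjusted p = 6.5e-11) and the nucleolar chaperone gene Npm1 1.51 (SE 0.13). The mTORC1 and initiation list was split, with 5 of 18 higher and 6 lower (edgeR) and a median of -0.13: Myc, a transcription factor that drives ribosome production, had 3.28 (SE 0.21), Rptor, the mTORC1 scaffold, 2.23 (SE 0.15), and Mlst8, another mTORC1 subunit, -1.53 (SE 0.18). Of 78 mitochondrial ribosomal protein genes 7 were higher and 10 lower, with a median of 0.05. All these counts stand beside the 29.9% higher and 34.2% lower over all genes. In TGFB1 retinas the counts were close: 5 of 5, 13 of 15, 21 of 40, 6 of 18 and 8 of 78 were higher, against 30.8% of all genes.

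**Figure D3:**
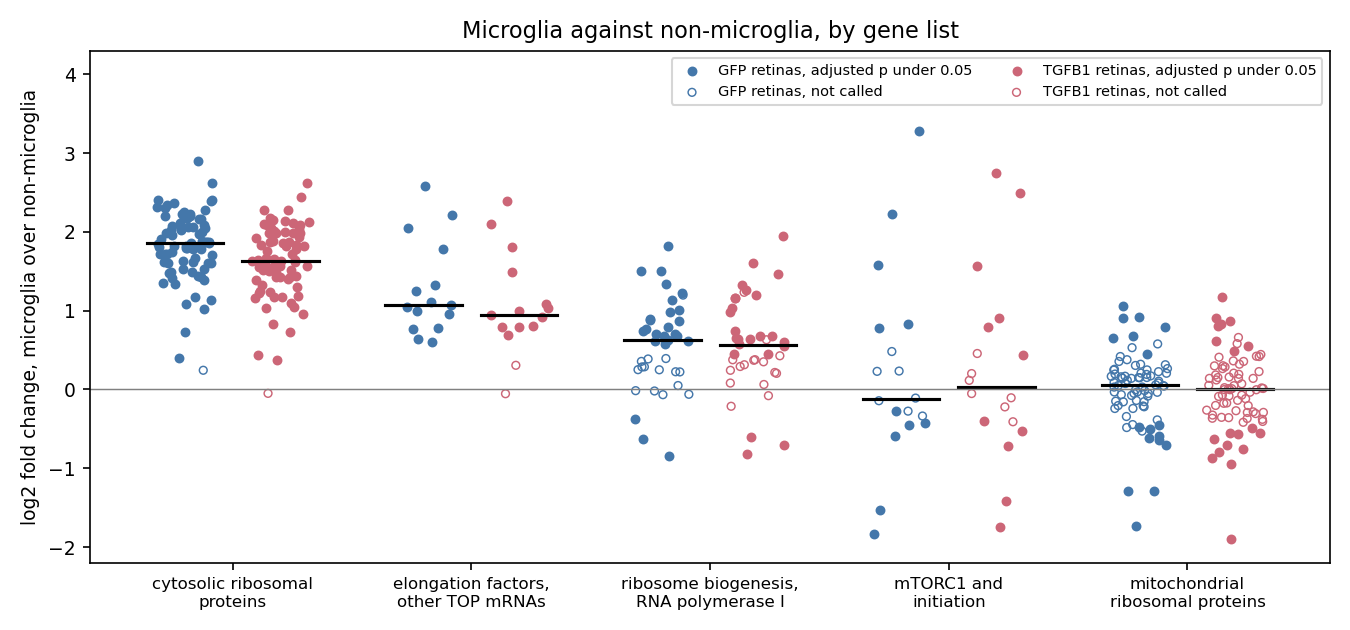
Log2 fold change of microglia over non-microglia for each tested gene of 5 lists, in GFP and TGFB1 retinas; filled points were called by edgeR at an adjusted p under 0.05 and black lines are medians. Cytosolic ribosomal proteins have medians of 1.85 and 1.63, elongation factors and other TOP genes 1.07 and 0.94, and mitochondrial ribosomal proteins lie around 0.

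Levels between genes were compared as CPM per kilobase of the principal annotated transcript. In microglia GFP libraries Rps9 at 637 ± 54.5 CPM per kilobase (SD, n = 7), Rps4x at 636 ± 72.6 and Rpl8 at 635 ± 67.3 were among the 5 highest, and these 3 were within 1 SD of each other. In non-microglia GFP libraries Rpl8 was highest at 185 ± 3.8 (n = 2). Rpl22 was in place 4 of 82 in non-microglia, at 172 ± 0.746, and in place 31 in microglia, at 227 ± 26.85. At the low end, below Rpl29 at 24.4 ± 5.201 in microglia, came the 3 tissue-restricted paralogs. Rps15a, at 28.1 ± 2.95, was also low, but its principal transcript is 5130 bases long, which lowers the value. The places of other members also depend on the length used. With all annotated exon bases of a gene as its length, Rps9 took place 13, Rps4x place 6 and Rpl22 place 60 in microglia GFP libraries. Only 2 members were among the 5 highest by both lengths. Across the 79 tested members the log2 levels per kilobase of both GFP fractions had a Pearson r of 0.918, a description over genes measured in the same libraries.

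Sequence shared with other transcripts limits these levels. Over the members, a median of 55.0% of the 50-base stretches of the principal transcript also occurred in transcripts of other genes, with a highest value of 98.6% in Rps27, and 48 members had 50% or more. How the authors counted reads with several matches is not stated in the labels. The fraction difference was of similar size on both sides of this split, with a median log2 fold change of 1.88 for 31 members under 50% and 1.82 for the 48 others.

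The comparison of treatments within microglia asks how these genes responded to the TGFB1 virus. None of the 79 tested members was called in either direction by edgeR at an adjusted p under 0.05, where 0.237% of 10970 genes were higher and 0.0729% lower. DESeq2 and limma voom also called 0. At an unadjusted p under 0.05, 12 members passed in edgeR, against 6.65% of all genes. With voom 15 passed, against 7.19%, and with DESeq2 10, against 6.23%. The edgeR number rested on single libraries. It was 30 without GFP replicate 2 and 19 without TGFB1 replicate 3. It was 1, 5, 7, 1, 4 and 4 without GFP replicates 3, 6 and 8 and TGFB1 replicates 2, 7 and 8. The share over all genes was 5.77% to 7.11% in these 8 fits. The signs were uneven: 76 of 79 log2 fold changes were negative, against 49.3% of all genes, with a median of -0.13 where that of all genes was 0.003. In no member did all GFP libraries lie above all TGFB1 libraries, against 0.0456% of all genes.

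Rps14, whose human counterpart is lost in the 5q- syndrome, and Rps24 were among the 3 members with the smallest p and lower values in TGFB1 retinas. The microglia libraries had 269 to 337 CPM of Rps14 with a median of 303 in GFP retinas and 233 to 307 CPM with a median of 285 in TGFB1 retinas. The ranges overlapped (log2 fold change -0.17, SE 0.07, edgeR adjusted p = 0.630). Rps24 had -0.22 (SE 0.09, edgeR adjusted p = 0.630). The 3 members with positive values were Rps2 at 0.24 (SE 0.52), Rpl3 at 0.03 (SE 0.07) and Rpl10a at 0.002 (SE 0.07), with edgeR adjusted p = 0.970, 0.976 and 0.998.

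The members moved together from library to library within the treatments. As log2 of CPM plus 1, set against the mean of the 14 microglia libraries, 73 of 79 members were below that mean in GFP replicate 2, 73 in TGFB1 replicate 2, 72 in TGFB1 replicate 7 and 70 in TGFB1 replicate 8, with median deviations of -0.17, -0.28, -0.20 and -0.18. In GFP replicate 3 only 3 were below it, with a median deviation of 0.29. In the remaining 9 libraries 18 to 36 members were below it. The libraries TGFB1 2, 7 and 8 also had the lowest shares of counts in the rRNA repeat genes Gm42418, AY036118 and Gm26917, 5.66%, 6.93% and 7.20%, where the others had 8.34% to 11.3%. With that share as a covariate, chosen after the data were seen, the members' median was -0.055, 66 of 79 were negative and 0 passed at an unadjusted p under 0.05, where 49.7% of all genes were negative and 5.47% passed. The part of rRNA repeat reads in the members' values was not tested further.

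**Figure D4:**
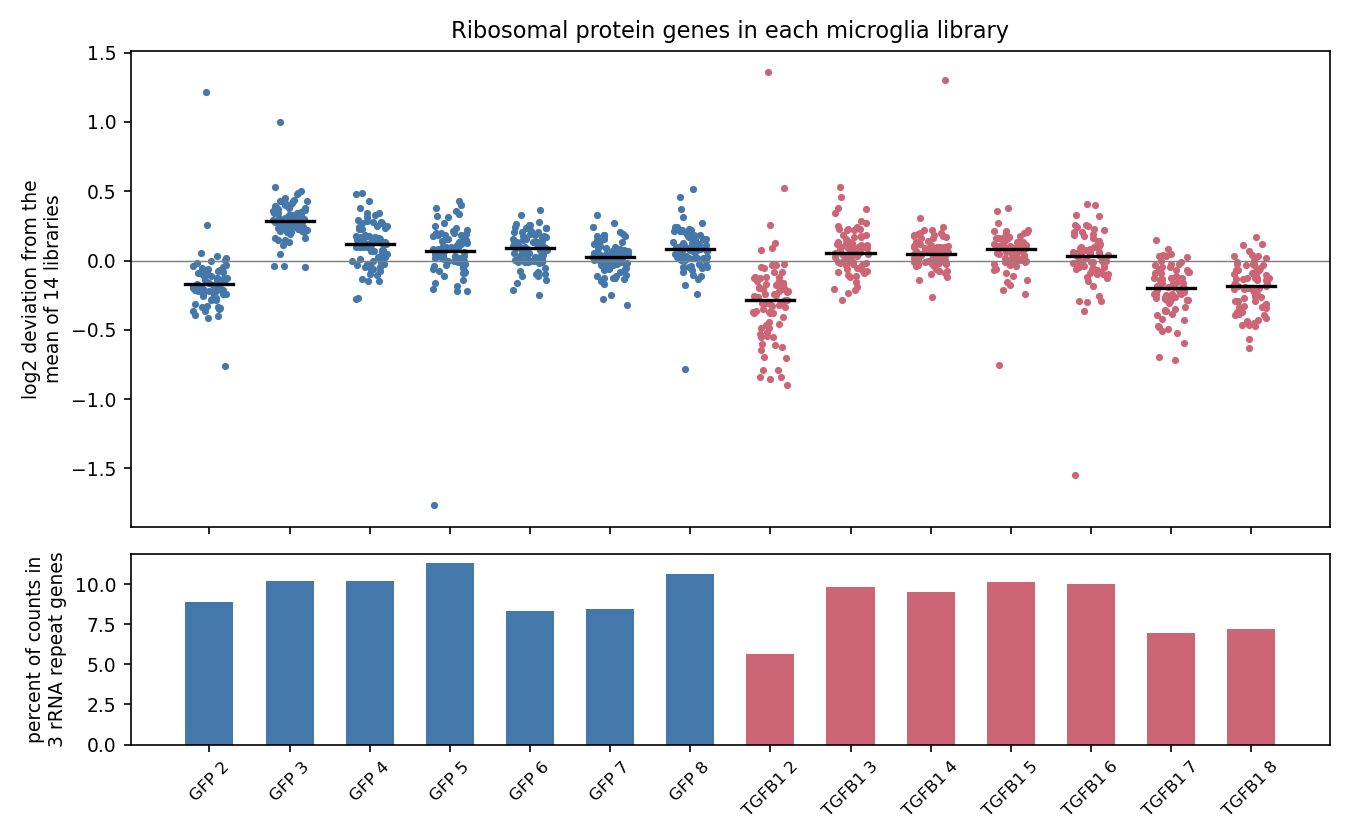
Top, log2 deviation of each of the 79 tested members from its mean over the 14 microglia libraries, with the median as a black line; bottom, percent of the library's counts in Gm42418, AY036118 and Gm26917. Members lie mostly below 0 in GFP 2 and TGFB1 2, 7 and 8, and mostly above it in GFP 3.

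Xist was counted at 10 or more in replicates 2, 7 and 8 of both treatments and in no other library. Within these 6 libraries the median log2 fold change of the members between treatments was -0.18, with 70 of 79 negative and 29 at an unadjusted p under 0.05 (edgeR, 0 called), against 49.8% and 7.76% of all genes in that fit. Within the other 8 microglia libraries it was -0.10, with 70 negative and 2 at an unadjusted p under 0.05 (edgeR, 0 called), against 48.5% and 5% of all genes. In replicates 2, 7 and 8 the rRNA repeat shares were 8.86%, 8.47% and 10.6% with GFP and 5.66%, 6.93% and 7.20% with TGFB1. Treatment and this share therefore cannot be told apart in the 6 libraries with Xist counts. In the other 8 the shares overlapped, at 8.34% to 11.3% with GFP and 9.52% to 10.1% with TGFB1. Without the 3 microglia libraries with the most Mueller glia RNA (GFP 2 and 5 and TGFB1 6, at 839 to 1006 CPM summed over 8 markers), the median was -0.19, with 76 of 79 negative and 33 at an unadjusted p under 0.05 (edgeR, 0 called), against 49.6% and 7.27% of all genes.

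Single members varied unequally between libraries of a group. The median SD of the members within a group, on the log2 scale, was 0.18, against 0.27 over all genes tested in microglia. These medians were not matched for the number of counts of a gene, on which such an SD depends. Among the members Rps9 had the smallest SD at 0.089 and Rps2, whose protein lies near the decoding centre, the largest at 1.05. Rps2 had 108, 92.4, 50.3, 12.7, 38.3, 41.7 and 26.2 CPM in GFP replicates 2 to 8 and 119, 66.5, 114, 26.7, 15.0, 32.1 and 51.6 CPM in TGFB1 replicates 2 to 8. The high and the low libraries of Rps2 were found in both treatments. Of its 50-base stretches, 79.03% also occurred in other genes' transcripts.

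Rpl31, near the exit tunnel, and the small subunit gene Rps12 had the next largest SDs, 0.44 and 0.42, and their low libraries were the same. Rpl31 had 29.2, 31.9 and 37.1 CPM in GFP replicates 2, 6 and 7 and 19.4, 22.5 and 26.5 CPM in TGFB1 replicates 2, 7 and 8, and 38.1 to 52.8 CPM in the other 8 microglia libraries. Rps12 had 84.7, 99.5 and 115 CPM and 61.9, 79.6 and 71.7 CPM in these 6 libraries and 118 to 157 CPM in the others. Rpl3 was ordered the other way, at 347, 354 and 343 CPM and 399.8, 371 and 362 CPM in the 6 libraries and 284 to 326 CPM in the others. These 6 libraries were also the lowest of the 14 in their share of rRNA repeat counts, at 5.66% to 8.86% against 9.52% to 11.3%. Rpl31, Rps12 and this order of libraries were singled out after their values were seen, and no test was made on them.

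**Figure D5:**
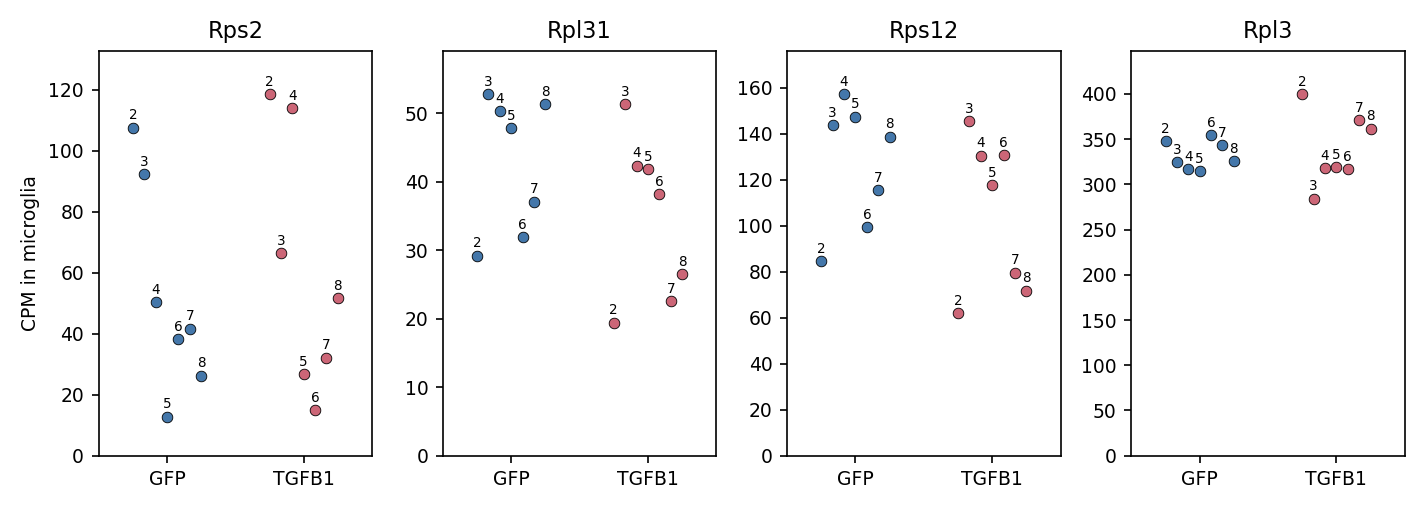
CPM of Rps2, Rpl31, Rps12 and Rpl3 in each microglia library, with the replicate number above each point. Rpl31 and Rps12 are low and Rpl3 high in GFP 2, 6 and 7 and TGFB1 2, 7 and 8, while Rps2 runs from 12.7 to 119 CPM in another order.

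In non-microglia 0 of 78 tested members were called between treatments (edgeR; DESeq2 and limma voom also called 0), where 0.338% of 13598 genes were higher and 0.0515% lower. At an unadjusted p under 0.05, 3 passed in edgeR, against 7.63% of all genes, and 1 in DESeq2, against 2.45%. The log2 fold changes were negative for 21 members, against 50.1% of all genes, with a median of 0.085, which was 0.143 without TGFB1 replicate 1 and 0.038 without TGFB1 replicate 2. Markers of the cell types in this mixture also differed between the treatments. The 10 rod and cone markers summed to 1762 and 2106 CPM in GFP and 857 and 1250 CPM in TGFB1 libraries, with Nrl at 0 in all 4 and 8 of the other markers lower in TGFB1 retinas. The 8 bipolar cell markers, all higher in TGFB1 retinas, summed to 1360 and 1448 CPM against 2063 and 2362 CPM. The 4 erythrocyte markers, all lower, summed to 654 and 731 CPM against 265 and 276 CPM, and the 8 Mueller glia markers, all lower, to 15707 and 16297 CPM against 14170 and 14710 CPM. Their part in the members' values was not tested. Rps3, whose protein lies at the mRNA entry and also acts in DNA repair, had 231 and 216 CPM in GFP libraries and 278 and 279 CPM in TGFB1 libraries. These did not overlap but did not pass (log2 fold change 0.32, SE 0.10, edgeR adjusted p = 0.263). Rpl24 followed at 0.73 (SE 0.32, edgeR adjusted p = 0.582) and Rpl37a at 0.53 (SE 0.24, edgeR adjusted p = 0.610). Rpl22 had the smallest p among negative values (-0.23, SE 0.14, edgeR adjusted p = 0.802). Rps27a, a fusion with ubiquitin, and Rps12 followed at -0.27 (SE 0.18) and -0.21 (SE 0.19). With 2 libraries a group, 71% of 2-fold and 33% of 1.5-fold changes set in simulated counts were recovered, against 96% and 78% in microglia. The changed genes were drawn only from those above a minimum mean CPM. Some members, such as Rps27rt, did not reach it in non-microglia, so these rates do not cover them. Of the genes called in the simulations, 7.96% in non-microglia and 2.25% in microglia had no change set.

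The difference of the treatment effects, tested as microglia minus non-microglia in the fit of all libraries, passed for 0 of 79 members (edgeR, DESeq2 and limma voom), where 0% of all genes were higher and 0.0131% lower. At an unadjusted p under 0.05, 6 members passed, against 4.64% of all genes; 2 and 3 passed without GFP replicate 2 and TGFB1 replicate 2 of non-microglia, and 10 and 11 without GFP replicate 2 and TGFB1 replicate 5 of microglia, with shares of 3.74% to 4.88% over all genes. It was negative for 72 members, against 51.6% of all genes, with a median of -0.20. Rpl24 had the largest difference, -0.96 (SE 0.29, edgeR adjusted p = 0.715), with log2 fold changes of -0.24 in microglia and 0.73 in non-microglia from their own fits. Rpl37a and Rpl35a had -0.64 (SE 0.24) and -0.54 (SE 0.22). The smallest p among positive values belonged to Rps27rt (0.75, SE 0.54), Rps27a (0.11, SE 0.18) and Rps2 (0.36, SE 1.28), with 0 of them called.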

How the data were processed

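The values deposited by the authors are raw counts of reads for each Ensembl gene, obtained per the labels' protocols from polyA RNA with a modified Smart-Seq2 method. Per the submitters' processing notes, STAR, featureCounts, DESeq2 and the build GRCm38.p6 were used. The sources used here do not give tool versions, the strand setting or the treatment of reads with several matches. Of 54532 identifiers, 54495 were matched to symbols in GENCODE M21. The 18 libraries held between 1582451 and 3064027 counts; their reads carry no molecular identifiers, so counting error understates the true error. The members and gene lists were chosen with earlier results of these data known.

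Fits were made with the robust quasi-likelihood F test of edgeR 4.0.16 (R 4.3.3) after filterByExpr and TMM scaling, with p-values adjusted over all genes tested by the Benjamini-Hochberg method and a threshold of 0.05. SE values are the absolute log2 fold change over the square root of F. Treatments were compared within each fraction, and fractions and the difference of effects in one fit of all 18 libraries. CPM were scaled within the fit that a comparison came from. Levels per kilobase use the shortest best-ranked principal transcript. P-values reflect the spread among these libraries, some of which may be technical.

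Named genes are the 10 called members with the largest fraction difference in GFP retinas, the paralog list, the 5 highest and 5 lowest per kilobase, up to 4 called genes of each list, and, in treatment comparisons without calls, the 3 members with the smallest p in each direction. Genes named beyond this rule are marked as such, and some genes that it picks are not reported here. The alternatives tried were RLE size factors, no filter, no robust dispersion, DESeq2 1.42.0, limma 3.58.1 voom with quality weights, no rRNA repeat genes, wider member rules, other fits, a replicate block and leaving out each library. Those added after the data were seen are the libraries with and without Xist, the rRNA repeat share as a covariate, leaving out the 3 libraries highest in Mueller glia genes, and adding Rps3a1. The models were tested on simulated counts.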

Additional observations from a re-analysis of the deposited data

Results flagged for a closer look

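In 82 members and the microglia groups of 7 libraries, 5 values lay far from the rest of their group by Dixon's test at the 95% level. By chance that test marks about 1 in 20 groups, so 5 is near or below the number that chance would give. The values are listed as a description. Rpl36al had 26.5 CPM (52 counts) in microglia TGFB1 replicate 7, where the other 6 libraries had 43.1 to 48.7 CPM. Rps29 had 57.7 CPM in microglia GFP replicate 2, where the others had 73.1 to 81.6 CPM. Rpl8, of the large subunit, had 655 CPM in microglia GFP replicate 3, where the others had 468 to 546 CPM. Both of these libraries also stand out over all members, most of which were low in GFP replicate 2 and high in GFP replicate 3. Rpl3l had 1.77 CPM (3 counts) in microglia GFP replicate 2, and Rpl10l 0.376 CPM (1 count) in microglia GFP replicate 7, both at the level of single reads.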

How the results depend on the processing

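The count of called members kept within 1.5 times its value in every comparison under every alternative run, and each named member kept its direction except those below. Between the fractions 75 to 78 members were called higher in GFP retinas and 74 to 78 in TGFB1 retinas when a library was left out. With RLE size factors the members' median was 1.74 in GFP retinas; the median of all genes moved from -0.06 to -0.17 with it, so that relative to all genes the members stood at 1.91 under both scalings. Leaving out a library moved the non-microglia treatment median between 0.038 and 0.143. The share of counts, without the rRNA repeat genes in the total, was 1.56%, 1.43%, 0.603% and 0.639% in microglia GFP, microglia TGFB1, non-microglia GFP and non-microglia TGFB1. With the 5 genes outside the rule the non-microglia shares were 0.577% and 0.606%. With Rps3a1 too, they were 0.586% and 0.615%, and that of microglia TGFB1 was 1.41%.

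Reversals concern genes that were not called. In microglia Rpl10a, at 0.002, turned to -0.0044 without a filter, -0.0061 in voom, -0.00031 without rRNA repeat genes, -0.084 in the libraries with Xist, -0.0532 without the 3 libraries highest in Mueller glia genes, and ran from -0.027 to 0.046 when a library was left out. Rpl3 was -0.086 in the libraries without Xist, -0.077 with the rRNA repeat covariate and -0.020 to 0.064 with a library left out. Rps2 was -0.0165 with the covariate and -0.0029 to 0.48 with a library left out. Rps27l ran from -0.088 to 0.023 in the TGFB1 fraction contrast. For the difference of effects, leaving out a library gave -0.16 to 1.32 for Rps27rt, -0.075 to 0.28 for Rps27a and -0.23 to 0.76 for Rps2. The cause was not tested.

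Deviations of same-numbered microglia libraries had correlations of -0.113 to 0.218, 5 of 7 over 0.1. The TGFB1 library most correlated with a GFP library carried the same number only for GFP replicate 2. In the other direction the numbers matched only for TGFB1 replicates 2 and 7. The correlation in non-microglia was -0.070, which says little with 2 libraries a group, whose deviations from their mean mirror each other. The main fits did not take the numbers as pairs, although Xist counts followed the numbers in microglia. A block for the number raised the edgeR calls over all genes. They went from 26 higher and 8 lower to 41 and 19 in microglia, and from 46 and 7 to 89 and 20 in non-microglia. With the replicate block 0 members were called in either fraction, the medians were -0.14 in microglia and 0.087 in non-microglia, and 32 and 3 members had an unadjusted p under 0.05, against 12 and 3 without it; over all genes that share was 7.95% and 7.66% with the block and 6.65% and 7.63% without. In microglia that number ran from 1 to 30, and the median from -0.17 to -0.11, when a library was left out. Depth limits Rpl10l, Rpl3l and Rpl39l, which are near 0 counts.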

Other observations

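Reads assigned to the 299 ribosomal protein pseudogene symbols summed to 480 to 1128 counts per microglia library and 337 to 373 per non-microglia library. With them the members' share was 1.44% and 1.34% in microglia GFP and TGFB1 libraries and 0.558% and 0.587% in non-microglia. Between treatments in microglia, the 15 elongation factor and other TOP genes had 14 negative log2 fold changes with a median of -0.12, and none was called by edgeR, with 2 at an unadjusted p under 0.05. Over all genes 49.3% were negative and 6.65% had an unadjusted p under 0.05. The 39 tested biogenesis genes had 17 negative values and a median of 0.01, and the 77 tested mitochondrial ribosomal protein genes 41 and -0.026, with none called and 0 at an unadjusted p under 0.05 in either list.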
